A study of Mus musculus with 22 samples.

Results

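The endoplasmic reticulum (ER) stress response was followed through 10 genes: Hspa5, Hsp90b1, Pdia4, Dnajb9, Sdf2l1, Herpud1, Ddit3, Atf3, Trib3 and Chac1. They were found by an exact match of the gene symbol among 34866 gene identifiers in the culture tables and 23911 in the whole-number cartilage table, and all 10 were present and passed the filter on low counts in every comparison. Controls carried loxP-flanked Dnmt1 (labelled Dnmt1 flox), and the mutants, written cKO here, carried the flanked gene with Prrx1-Cre, a driver active in limb mesenchyme and therefore in more tissues than cartilage. Dnmt1 encodes the enzyme that maintains DNA methylation when DNA is copied. Primary chondrocytes from knee articular cartilage of mice at postnatal day 3 to 5 were cultured and sampled untreated, written day 0 (3 control and 3 cKO samples), or after 3 days of bone morphogenetic protein 2 (BMP2) at a labelled 100 ng/µl, written day 3 (4 control and 4 cKO samples). BMP2 is a growth factor that drives chondrocyte maturation. Cartilage tissue treated with collagenase came from mice at postnatal day 5 (4 control and 4 cKO samples; in each genotype, replicates 1 and 2 were male and 3 and 4 female).

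Proteins that leave the cell are folded in the ER, and unfolded protein there activates sensors in its membrane. ATF6 is cut to release a transcription factor, IRE1 (gene Ern1) splices the messenger of the transcription factor XBP1, and PERK (gene Eif2ak3) slows translation while raising that of ATF4. Together they switch on chaperones, the machinery that removes misfolded protein, and, through ATF4, a set of stress and cell death regulators. ATF4 also answers to amino acid shortage, to mitochondrial stress and to other signals that act through the same translation factor, a branch called the integrated stress response. Chondrocytes secrete large amounts of collagen and proteoglycan and are known to depend on this response, and ATF4 is needed for normal growth of bone.

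The untreated cultures held 41749546 to 51741669 estimated counts per sample, the BMP2 cultures 14434320 to 18918905, and the cartilage libraries 1100198 to 1888896 counts, so single values are less precise in cartilage. The Dnmt1 level checked the labels. CPM here are counts relative to a library total adjusted by edgeR's TMM scaling, not to the plain total. Dnmt1 was at 153.1 to 165.6 CPM in control and 26.8 to 32.8 CPM in cKO samples at day 0. It was at 63.3 to 81.5 against 10.9 to 35.6 CPM at day 3, and 34.5 to 48.6 against 11.8 to 14.3 CPM in cartilage. The groups did not overlap in any of these settings. In the estimated counts of the same cartilage libraries, Dnmt1 was at 44.1 to 62.5 CPM in control and 26.5 to 33.4 CPM in cKO samples. The log2 fold change of cKO over control was -0.78 in those counts and -1.66 in the whole-number counts. In cKO cultures at day 3, replicate 4 stood apart: the chi-square over genes, divided by its degrees of freedom, was 123.9 to 138.4 for pairs with it and 7.424 to 10.88 for pairs without it. The summed level of 10 chondrocyte markers was 1670 CPM in that replicate and 12500 to 17500 CPM in the other 3 cKO samples. The labels call the samples separate biological replicates of the cultures, without naming litters or days, so p-values measure the spread between these samples.

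The 2 genotypes also differed in cell type markers, which bears on every culture result below. The summed chondrocyte markers were 147000 to 155000 CPM in control and 53900 to 65300 CPM in cKO samples at day 0, with 10 of 10 markers lower in cKO. At day 3 they were 96100 to 117000 CPM in control and 1670 to 17500 CPM in cKO samples, with 9 of 10 lower. Skeletal muscle markers summed to 14.4 to 15.4 against 75.3 to 80.2 CPM at day 0 and to 3.29 to 4.02 against 157 to 2070 CPM at day 3, where 8 of 8 tested markers were higher in cKO. Of the defining muscle genes, Myf5 had at most 3 counts in every culture and Myog in every culture but the cKO cultures at day 3, while Myod1 had at most 3 in every control culture. Hypertrophic chondrocyte markers summed to 1490 to 1540 CPM in control and 990.0 to 1130.0 CPM in cKO samples at day 0, with 1 of 7 called higher and 3 lower. At day 3 they summed to 426 to 877 against 4230.0 to 5050.0 CPM, with 5 of 7 called higher and 2 lower. Fibroblast and tendon markers summed to 5010.0 to 7390.0 against 2980.0 to 3630.0 CPM at day 0 (2 of 8 higher, 6 lower) and to 11200 to 12900 against 12600 to 13900 CPM at day 3 (3 of 7 tested higher, 1 lower). Adipocyte markers summed to 0.901 to 1.14 against 2.37 to 4.49 CPM at day 0 and to 1.36 to 2.81 against 26.5 to 39.7 CPM at day 3, with Lep at most at 3 counts in every culture. Endothelial and pericyte markers summed to at most 25.3 CPM, and erythroid markers to at most 0.277 CPM, in any culture. Osteoclast and macrophage markers summed to 168 to 173 against 81.0 to 96.4 CPM at day 0 (4 of 8 tested higher, 1 lower) and to 116 to 145 against 106 to 372 CPM at day 3 (3 of 5 tested higher, 0 lower). Of all tested genes, 64.5% were called at day 0 (33.0% higher, 31.6% lower) and 48.1% at day 3 (25.5% higher, 22.6% lower). A call alone therefore sets no marker apart. In these bulk samples, fewer cells of a type and less RNA per cell cannot be told apart, and the part of these markers in the results below was not tested.

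Unless another tool is named, an adjusted p is from edgeR's quasi-likelihood test, corrected by the Benjamini-Hochberg method across the whole table. Genes with a value under 0.05 are named as called. A log2 fold change is cKO over control and is given with its standard error (SE). CPM of the 14 cultures are on 1 common scale. Levels of different genes were compared only after division by exonic length. On that scale Hspa5 led in untreated control cultures (494 CPM per kilobase), followed by Hsp90b1 (357), Pdia4 (199), Herpud1 (104), Trib3 (97.8), Ddit3 (61.4), Chac1 (57.0), Dnajb9 (21.5), Atf3 (19.8) and Sdf2l1 (15.6). In this order the samples of Ddit3 and Chac1 overlapped, as did those of Dnajb9 and Atf3.

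Promoter letters are shown for the members that hold an element through which the sensors are known to act on their targets. RefSeq promoters (GRCm38.p6) were matched for 10 of 10 members, and the 250 bases before each start were searched on both strands. ERSE, the ER stress response element bound by ATF6 with NF-Y, was searched as CCAAT followed after 9 free bases by CCACG. It was in 0.113% of 32851 promoters and in 2 members, Hspa5 and Hsp90b1. ERSE-II, searched as ATTGG followed after 1 free base by CCACG, was in 0.0304% of promoters and in 1 member, Herpud1. The C/EBP-ATF site to which ATF4 binds, searched as TGATGNAA, was in 3.45% of promoters and in 3 members, Herpud1, Atf3 and Chac1. Pdia4, Dnajb9, Sdf2l1, Ddit3 and Trib3 held no ERSE, ERSE-II or C/EBP-ATF site in this window. Each ERSE and ERSE-II overlaps a CCAAT box and a CCACG core, which on their own were in 33.8% and 28.3% of promoters and in 8 and 6 members. The cyclic AMP response element TGACGTCA (1.55% of promoters) and the XBP1-type element TGACGTGG (0.563%) were in 0 members within this window. The stretches below read 5′ to 3′ on the gene's strand, with the fixed letters of each element in capitals, and a match describes the letters only. The start is that of the RefSeq promoter table. It can lie within the wider GENCODE gene span given further on, as the stretches of Hspa5 and Atf3 do.
Hspa5 (chr2:34772020-34772048, + strand, 70 to 42 bases before the start, 1 ERSE): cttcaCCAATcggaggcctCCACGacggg
Hsp90b1 (chr10:86705521-86705668, - strand, 224 to 77 bases before the start, 2 ERSE, the later one on the opposite strand): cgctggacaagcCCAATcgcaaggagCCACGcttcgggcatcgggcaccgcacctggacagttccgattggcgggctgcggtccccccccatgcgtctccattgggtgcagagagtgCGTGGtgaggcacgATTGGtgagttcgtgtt
Herpud1 (chr8:94386305-94386399, + strand, 124 to 30 bases before the start, the ATF4-type site on the opposite strand and then 1 ERSE-II): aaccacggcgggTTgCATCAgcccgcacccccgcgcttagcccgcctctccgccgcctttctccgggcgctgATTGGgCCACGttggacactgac
Chac1 (chr2:119351037-119351068, + strand, 205 to 174 bases before the start, the ATF4-type site on the opposite strand): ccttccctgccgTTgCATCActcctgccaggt
Atf3 (chr1:191183424-191183455, - strand, 122 to 91 bases before the start, the ATF4-type site on the opposite strand): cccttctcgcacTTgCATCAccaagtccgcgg

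In cultured chondrocytes, most members were lower in cKO samples. At day 0, 9 of 10 were called lower and 1, Sdf2l1, higher, and the 2 genotypes did not overlap for any of the 10. This comparison called 64.5% of 15530 tested genes (33.0% higher, 31.6% lower), and 70.3% of genes did not overlap between the genotypes, so that a call alone sets no gene apart here. The members' median log2 fold change was -0.75 against 0.01 over all tested genes. At day 3, 7 of 10 were called lower and 0 higher, where 48.1% of 13924 tested genes were called (25.5% higher, 22.6% lower) and 47.9% did not overlap. The median was then -0.70, against 0.01 over all genes. The 7 calls held without each of the 8 samples in turn, cKO replicate 4 included.

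**Figure D1:**
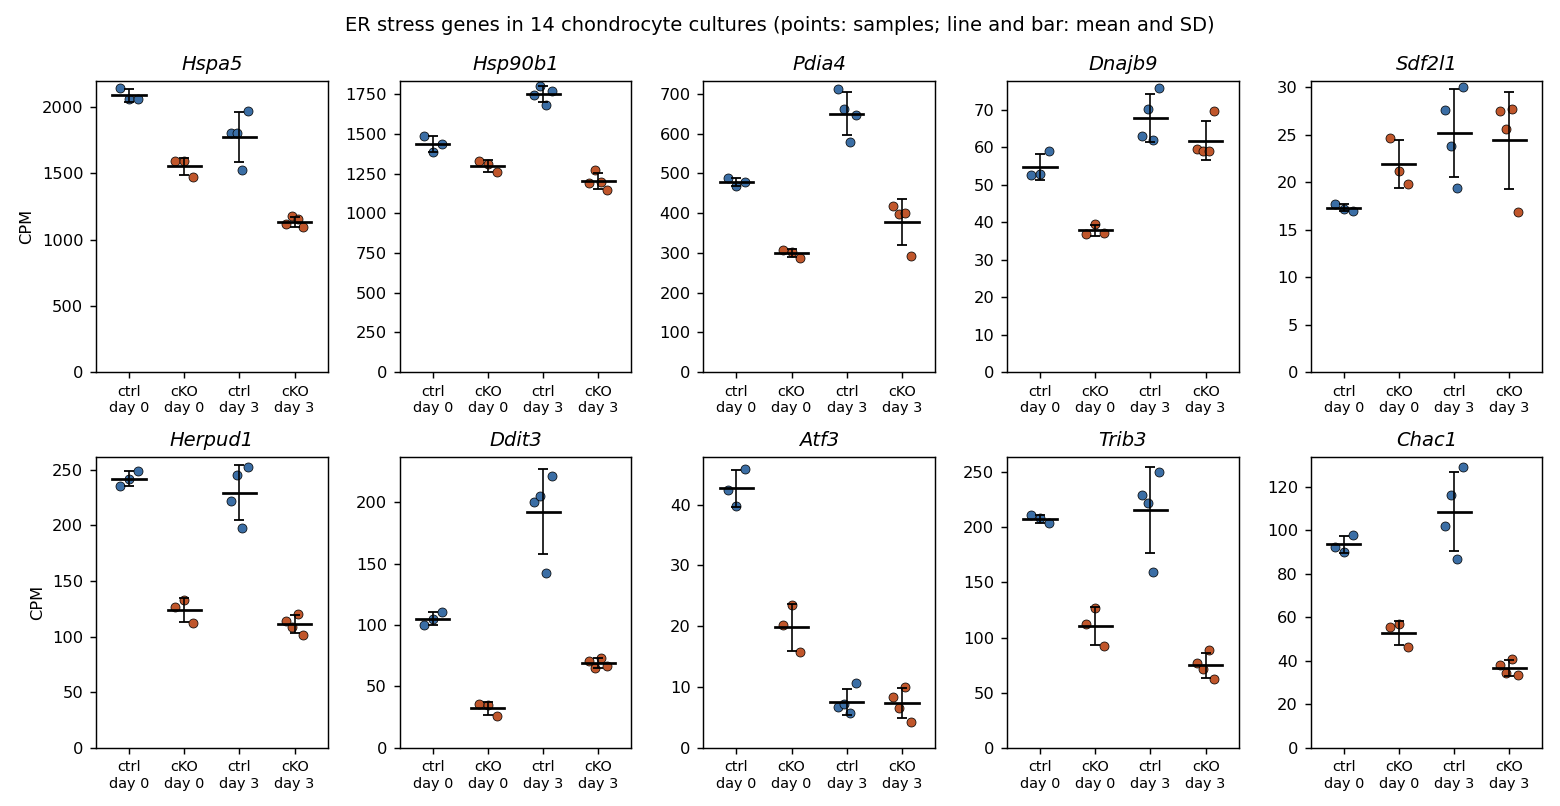
CPM (vertical axes, linear from 0) of the 10 ER stress genes in each of 14 cultures, with control samples in blue and cKO samples in orange, the mean as a line and the SD as a bar. The cKO points lie below the control points in both days for Hspa5, Hsp90b1, Pdia4, Herpud1, Ddit3, Trib3 and Chac1, while Dnajb9, Sdf2l1 and Atf3 overlap at day 3.

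The 5 chaperones and co-chaperones of the ER had values at day 0 from -0.68 to 0.34, and the other 5 members from -1.71 to -0.83, a difference between genes that was not tested. Hspa5 (ENSMUSG00000026864, chr2:34771970-34777547, + strand) encodes BiP, a major ER chaperone that holds the sensors inactive. Its level in untreated control cultures was 2146, 2063 and 2060 CPM, and in cKO cultures 1593, 1591 and 1477 CPM. After BMP2 the control samples stood at 1807, 1804, 1523 and 1973 CPM and the cKO samples at 1120, 1179, 1153 and 1094 CPM. Every cKO sample was below every control sample of the same day. The log2 fold change was -0.43 (SE 0.0522, adjusted p = 8.02e-05) at day 0 and -0.63 (SE 0.104, adjusted p = 0.00141) at day 3.

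Hsp90b1 (chr10:86690209-86705509, - strand) encodes GRP94, the ER's HSP90 chaperone. In untreated cultures it was at 1488, 1387 and 1438 CPM in control and at 1331, 1310 and 1259 CPM in cKO samples, a narrow gap of -0.15 on the log2 scale (SE 0.0476, adjusted p = 0.0215). That call did not hold when all 14 cultures shared 1 spread (adjusted p = 0.125) or without control replicate 3 (0.0512) or cKO replicate 3 (0.0527). After BMP2 the gap was wider: control samples stood at 1749, 1801, 1681 and 1772 CPM and cKO samples at 1193, 1276, 1201 and 1150 CPM (-0.52, SE 0.0850, adjusted p = 0.00131). Its gene model overlaps those of 1810014B01Rik and Gm15344, and whether the counting used strand is not given in the sources used here.

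Pdia4 (chr6:47796141-47813430, - strand), a protein disulfide isomerase, was at 487.7, 467.4 and 479.1 CPM in control and 307.4, 302.9 and 287.5 CPM in cKO cultures at day 0. Its log2 fold change was -0.68 (SE 0.0372, adjusted p = 6.21e-07). At day 3 control samples held 711.5, 662.3, 580.3 and 646.6 CPM and cKO samples 417.6, 399.1, 399.3 and 291.0 CPM, the last being replicate 4. Again no cKO sample reached the lowest control sample, and the log2 fold change was -0.77 (SE 0.122, adjusted p = 0.00110).

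Dnajb9 and Sdf2l1, co-chaperones of BiP, were called at day 0 and not at day 3. Dnajb9 (chr12:44205559-44210326, - strand), also called ERdj4, restrains IRE1. It was at 52.6, 52.8 and 58.8 CPM in control and at 36.8, 39.5 and 37.1 CPM in cKO cultures at day 0 (-0.54, SE 0.0548, adjusted p = 2.60e-05). At day 3 the control samples (62.0 to 75.6 CPM) and cKO samples (58.9 to 69.5 CPM) overlapped, and the log2 fold change was -0.12 with a 95% interval of -0.33 to 0.0986 (adjusted p = 0.340).

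Sdf2l1 (chr16:17130138-17132383, - strand), which keeps BiP cycling on its clients, went the other way at day 0. It stood at 17.7, 17.2 and 17.0 CPM in control and 24.7, 21.2 and 19.8 CPM in cKO cultures, a log2 fold change of 0.34 (SE 0.0795, adjusted p = 0.00484). With 1 spread for all 14 cultures it was not called (0.34, adjusted p = 0.147). At day 3 its values ran from 19.4 to 30.0 CPM in control and from 16.9 to 27.8 CPM in cKO samples, with replicate 4 the lowest, and the log2 fold change was -0.03 (95% interval -0.44 to 0.38, adjusted p = 0.906). Without replicate 4 it was 0.0988 and still not called (adjusted p = 0.561).

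Herpud1 (chr8:94386438-94395377, + strand), which organises the complex that moves misfolded protein out of the ER for degradation, was lower by a similar amount on both days. It was at 235.6, 241.5 and 249.3 CPM in control and 126.5, 132.8 and 112.2 CPM in cKO cultures at day 0 (-0.97, SE 0.0573, adjusted p = 9.53e-07). At day 3 the levels were 222.0, 245.4, 197.6 and 252.3 CPM in control and 114.4, 108.9, 120.6 and 101.6 CPM in cKO samples (-1.03, SE 0.0934, adjusted p = 7.23e-05). The highest cKO sample of both days, at 132.8 CPM, was below the lowest control sample, at 197.6 CPM.

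Of the members downstream of ATF4, Ddit3 had the largest log2 fold change of the 10 at day 0, and Chac1, Trib3 and Ddit3 the 3 largest at day 3. Ddit3 (ENSMUSG00000025408, chr10:127290774-127296288, + strand) encodes CHOP, a transcription factor that promotes cell death under lasting stress. In untreated cultures it was at 100.4, 104.6 and 110.5 CPM in control and 35.4, 35.1 and 26.1 CPM in cKO samples, a 3.28-fold gap (log2 fold change -1.71, SE 0.103, adjusted p = 1.06e-06). After BMP2 it was at 200.2, 205.4, 142.4 and 221.8 CPM in control and 70.9, 65.0, 73.3 and 66.3 CPM in cKO samples (-1.47, SE 0.132, adjusted p = 6.75e-05). The cKO samples at day 3 were above those at day 0 and still below every control sample of either day. The symbol had a second identifier in the culture tables with at most 4 counts, which was not used, and its 3′ end overlaps Mars on the opposite strand.

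Trib3 (chr2:152337422-152344032, - strand), a pseudokinase that ATF4 and CHOP induce and that in turn restrains them, was at 211.1, 208.5 and 203.7 CPM in control and 112.3, 126.7 and 92.5 CPM in cKO cultures at day 0. The log2 fold change was -0.92 (SE 0.0927, adjusted p = 2.51e-05). At day 3 the control samples held 229.6, 222.2, 159.7 and 250.2 CPM and the cKO samples 76.8, 71.2, 89.0 and 62.4 CPM (-1.51, SE 0.154, adjusted p = 0.000125). Control replicate 3 was the lowest of its group here, as it was for all 10 members, and its Trib3 level was still above every cKO sample.

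Chac1 (chr2:119351229-119354381, + strand) encodes an enzyme that breaks down glutathione and is a target of ATF4 and CHOP. It was at 92.3, 90.1 and 97.7 CPM in control and 55.4, 56.6 and 46.3 CPM in untreated cKO cultures (-0.83, SE 0.0718, adjusted p = 9.52e-06). After BMP2 it was at 101.9, 116.3, 86.8 and 128.9 CPM in control and 38.1, 34.1, 40.8 and 33.4 CPM in cKO samples (-1.55, SE 0.127, adjusted p = 4.22e-05).

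Atf3 (chr1:191170296-191218039, - strand), a transcription factor induced by ATF4 and also by many immediate signals such as handling, was an exception at day 3. It was at 42.5, 39.8 and 45.8 CPM in control and 20.2, 23.5 and 15.7 CPM in cKO cultures at day 0 (-1.11, SE 0.126, adjusted p = 5.04e-05). At day 3 both genotypes were low and overlapped, at 6.72, 7.17, 5.64 and 10.6 CPM in control and 8.32, 6.57, 10.0 and 4.27 CPM in cKO samples. The log2 fold change was -0.03 (95% interval -0.67 to 0.609, adjusted p = 0.936).

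**Figure D2:**
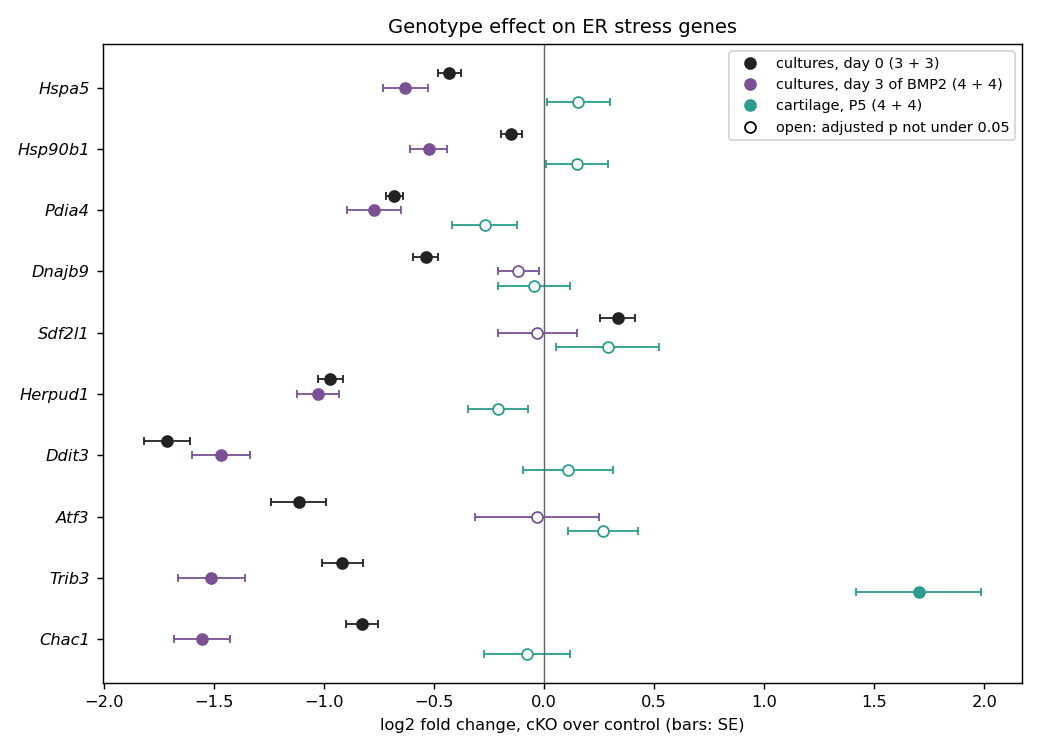
Log2 fold change of cKO over control (horizontal axis) with its SE for each ER stress gene in untreated cultures (black), in cultures after 3 days of BMP2 (purple) and in cartilage at postnatal day 5 (green), with open symbols where the adjusted p was not under 0.05. The culture values lie left of 0 except Sdf2l1 at day 0 (0.34), and the cartilage values lie near 0 except Trib3 (1.70).

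Whether the genotype effect itself changed between the days was tested as an interaction over the 14 cultures, which called 16.8% of 14909 genes (9.94% positive, 6.89% negative). Of the 10 members 3 were called. The genotype gap widened from day 0 to day 3 for Hsp90b1 (difference of log2 fold changes -0.39, SE 0.0958, adjusted p = 0.0147) and Chac1 (-0.74, SE 0.172, adjusted p = 0.0114), and narrowed for Dnajb9 (0.40, SE 0.117, adjusted p = 0.0342). Only Chac1 was called without control day 0 replicate 2, and the Dnajb9 call was lost in 9 of 14 fits that left out a sample (adjusted p up to 0.0968) and without the filter on low counts (0.0570). Atf3 (1.07, adjusted p = 0.0570) and Trib3 (-0.61, adjusted p = 0.0677) were not called, but were called by DESeq2 (adjusted p = 0.0211 and 0.0373). For Ddit3 the difference was 0.22 with a 95% interval of -0.19 to 0.64, and for Herpud1 -0.07 (-0.35 to 0.199).

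From day 0 to day 3 some members rose and others fell. Day, BMP2 and count table changed together, so these changes have no single source, and the 2 changes share the fit but no samples. In control cultures 5 members rose and 2 fell, where 56.9% of 14909 genes were called (28.1% higher, 28.8% lower) and 64.0% did not overlap between the days. In cKO cultures 3 rose and 4 fell, where 62.2% were called (32.4% higher, 29.8% lower) and 62.5% did not overlap. Ddit3 rose in both genotypes, by 0.87 in control (SE 0.138, adjusted p = 0.000150) and 1.096 in cKO cultures (SE 0.141, adjusted p = 2.39e-05). Dnajb9 also rose in both, by 0.31 (adjusted p = 0.00682) and 0.71 (adjusted p = 1.31e-05), and so did Pdia4, by 0.44 (adjusted p = 0.00383) and 0.33 (adjusted p = 0.0182), though the cKO samples of Pdia4 overlapped between the days through replicate 4. The cKO call for Pdia4 was lost without cKO day 0 replicate 3 or without cKO day 3 replicate 1 or 3 (adjusted p up to 0.0698).

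Hspa5 fell in both genotypes, with a log2 change of -0.23 in control (adjusted p = 0.0354) and -0.45 in cKO cultures (adjusted p = 0.000594). The control call was lost in 5 of 14 fits that left out a sample, with values from -0.29 to -0.16. Atf3 had the largest change, -2.50 in control (SE 0.252, adjusted p = 3.57e-06) and -1.44 in cKO cultures (SE 0.248, adjusted p = 0.000257). Hsp90b1 rose in control cultures (0.28, adjusted p = 0.00306) and was not called in cKO cultures (-0.11, adjusted p = 0.176). Sdf2l1 rose in control cultures (0.54, adjusted p = 0.0159, but 0.0518 without control day 0 replicate 3) and was not called in cKO cultures (0.16, adjusted p = 0.431). Trib3 and Chac1 fell in cKO cultures, by 0.56 (adjusted p = 0.00558) and 0.53 (adjusted p = 0.00209), and had values of 0.05 (adjusted p = 0.793) and 0.22 (adjusted p = 0.146) in control cultures. Herpud1 was called in neither (-0.08 and -0.15).

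**Figure D3:**
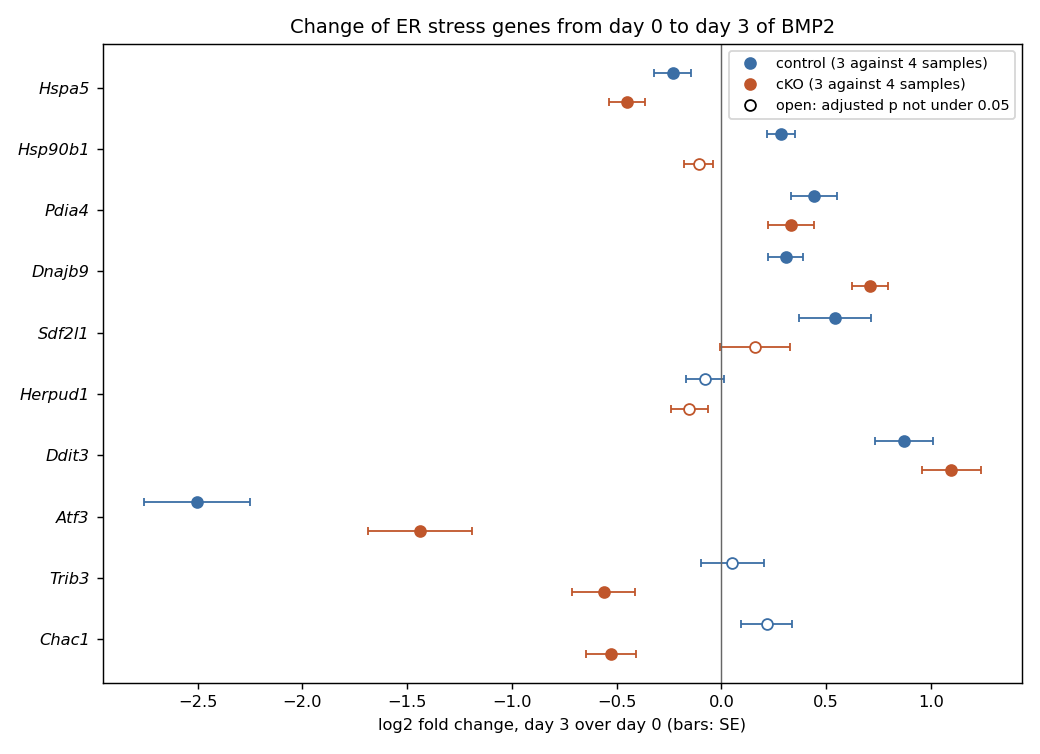
Log2 fold change of day 3 over day 0 (horizontal axis) with its SE for each ER stress gene in control (blue, 3 against 4 samples) and cKO cultures (orange, 3 against 4 samples), with open symbols where the adjusted p was not under 0.05. Ddit3, Dnajb9 and Pdia4 lie right of 0 in both genotypes, Atf3 and Hspa5 lie left of 0 in both, and Trib3 and Chac1 lie left of 0 in cKO cultures alone among the called values.

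In cartilage tissue 1 of 10 members, Trib3, was called, and it was higher in cKO. Of the 10 values 6 were above 0, against 1 in cultures at day 0 and 0 at day 3. The cartilage libraries were shallower, and the difference from the cultures was not tested. The cartilage comparison called 6.19% of 8793 tested genes (3.15% higher, 3.04% lower), and 13.5% of genes did not overlap between the genotypes. Trib3 was at 9.01, 8.53, 4.59 and 4.12 CPM in control and 26.0, 18.4, 16.9 and 22.4 CPM in cKO samples, from 5 to 12 counts per control library and 19 to 31 per cKO library. Every cKO sample was above every control sample, with a 3.25-fold gap (log2 fold change 1.70, SE 0.282, adjusted p = 0.00133). The call held in every alternative run, and the deposited estimated counts of the same libraries gave 1.63 (SE 0.273, adjusted p = 0.00224). Pool 1 held every control library and pool 2 every cKO library, so library pool and genotype cannot be told apart in any cartilage result.

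For the other 9 members the cartilage values of the 2 genotypes overlapped. Hspa5 was at 1051, 947.1, 1036 and 998.3 CPM in control and 1149, 901.7, 1319 and 1142 CPM in cKO samples (log2 fold change 0.16, 95% interval -0.14 to 0.456, adjusted p = 0.549). Ddit3 was at 32.3, 17.1, 33.9 and 40.2 CPM in control and 21.8, 31.5, 44.6 and 37.0 CPM in cKO samples (0.11, 95% interval -0.33 to 0.544, adjusted p = 0.797). Chac1 was at 41.3, 47.8, 26.6 and 23.2 CPM in control and 30.2, 40.2, 34.8 and 23.3 CPM in cKO samples (-0.08, 95% interval -0.50 to 0.342, adjusted p = 0.853).

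Atf3 was at 130.6, 160.4, 155.9 and 236.8 CPM in control cartilage and 136.0, 153.9, 293.5 and 272.2 CPM in cKO cartilage, where the 2 male samples were low and the 2 female samples high (0.27, adjusted p = 0.350). Herpud1 ran from 210.1 to 237.6 CPM in control and from 151.6 to 223.0 CPM in cKO samples (-0.21, adjusted p = 0.391). The remaining members, Hsp90b1 (0.15), Pdia4 (-0.27), Dnajb9 (-0.05) and Sdf2l1 (0.29), had adjusted p from 0.302 to 0.896. The median of the 10 members was 0.13, against 0.01 over all tested genes. The difference of the genotype effect between the sexes rested on 2 libraries in each arm. It was called for 0 of 10 members and for 1 of 9687 genes (0.0103%), with adjusted p of at least 0.994 for the members. The values ran from -0.44 for Herpud1 to 0.84 for Trib3, whose 95% interval of -0.40 to 2.07 shows how little this test can resolve.

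**Figure D4:**
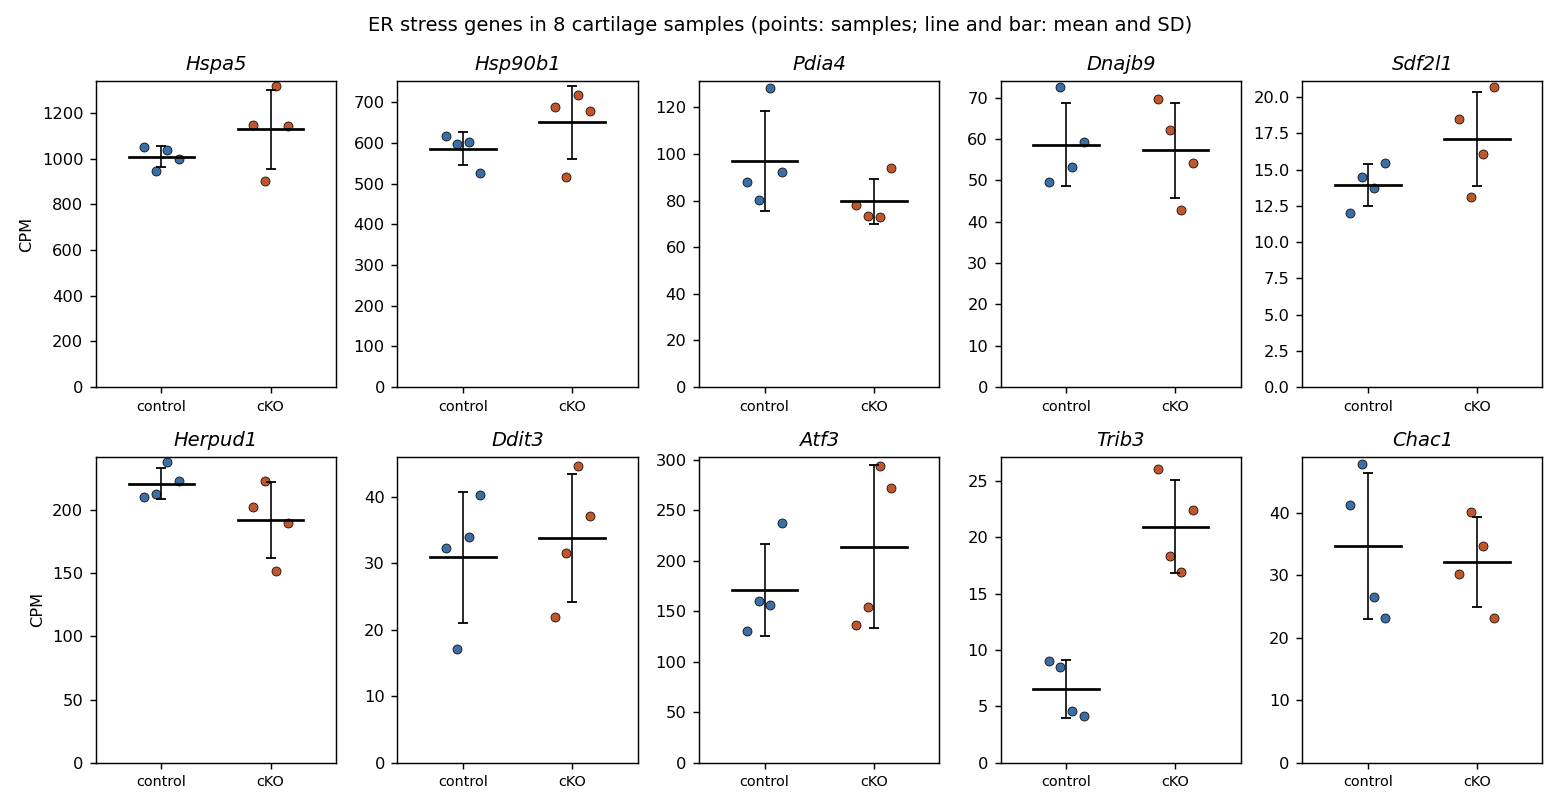
CPM (vertical axes, linear from 0) of the 10 ER stress genes in 4 control (blue) and 4 cKO (orange) cartilage samples, with the mean as a line and the SD as a bar. Trib3 is the member whose groups are apart, at 4.12 to 9.01 CPM in control and 16.9 to 26.0 CPM in cKO samples.

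Marker sums in cartilage are given beside these values, where 6.19% of all tested genes were called. Chondrocyte markers summed to 69300 to 103000 CPM in control and 33500 to 64100 CPM in cKO samples, with 3 of 10 called lower. Hypertrophic chondrocyte markers summed to 1100.0 to 2220.0 against 187 to 1810.0 CPM, with 5 of 7 called lower (median -1.48). Fibroblast and tendon markers summed to 47600 to 89000 against 24900 to 56000 CPM with 0 of 8 called, and endothelial and pericyte markers to 107 to 230.0 against 50.4 to 117 CPM with 1 of 5 tested called lower. Adipocyte markers summed to 20.2 to 36.6 against 8.40 to 32.1 CPM. Erythroid markers summed to 166 to 916 against 13.4 to 389 CPM with 4 of 4 tested called lower. Skeletal muscle markers summed to 12.8 to 16.5 against 58.0 to 89.2 CPM with 2 of 2 tested called higher. Of these, Myog and Myf5 had at most 3 counts in every library. Osteoclast and macrophage markers summed to 151 to 511 against 70.5 to 153 CPM with 3 of 4 tested called lower. The part of all these markers in the Trib3 result was not tested.

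The sensors and transcription factors above the members were lower in cKO cultures too. At day 0, 6 of 6 were called lower: Ern1 (-0.95, adjusted p = 2.46e-08), Eif2ak3 (-0.77, adjusted p = 7.89e-07), Atf6 (-0.64, adjusted p = 1.94e-07), Atf6b (-0.60), Atf4 (-0.62, adjusted p = 2.18e-06) and Xbp1 (-0.30, adjusted p = 1.73e-05). At day 3, 4 of 6 were called lower, with Atf4 (-1.06, adjusted p = 0.000116), Ern1 (-0.82, adjusted p = 0.000277) and Eif2ak3 (-0.53, adjusted p = 0.00114) first. Atf6 (-0.06, adjusted p = 0.841) and Xbp1 (-0.08, adjusted p = 0.4) were not called, and Atf6 was at 144.1 CPM in replicate 4 against 78.1 to 82.5 CPM in the other cKO samples. Without replicate 4, 5 of 6 were called lower. Of all tested genes, 31.6% were called lower at day 0 and 22.6% at day 3.

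Atf4, the factor closest to the last 4 members, is given by sample. It was at 709.0, 719.2 and 722.1 CPM in control and 466.3, 488.2 and 442.9 CPM in untreated cKO cultures. After BMP2 it was at 571.5, 575.4, 456.6 and 626.7 CPM in control and 272.7, 254.8, 281.2 and 246.4 CPM in cKO samples, again with no overlap, and its genotype gap widened between the days (interaction -0.46, SE 0.132, adjusted p = 0.0313). In cartilage 0 of 5 tested regulators were called at an adjusted p under 0.05. Atf4 was at 513.8 to 564.1 CPM in control and 413.1 to 503.0 CPM in cKO cartilage, groups that did not overlap, with a log2 fold change of -0.23 (SE 0.126, adjusted p = 0.311). Messenger levels do not show the splicing of Xbp1 or the translation of ATF4, through which these regulators are known to act.

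Targets of the integrated stress response outside the 10 members were mostly lower in cKO cultures too. Of 22 such genes, 20 were called lower and 1 higher in untreated cultures. Their median was -0.61, against 0.01 over all genes, of which 31.6% were called lower and 33.0% higher. Ppp1r15a, the phosphatase subunit that ends the translation block, was at 262 ± 1.81 CPM in control and 90.2 ± 8.51 CPM in cKO samples (SD, n = 3 each, -1.54), and Stc2, a secreted stress-induced glycoprotein, at 225 ± 4.20 and 92.6 ± 7.14 CPM (-1.29). At day 3, 15 were lower and 1 higher, with a median of -0.70. Over all genes, 22.6% were called lower and 25.5% higher at day 3, with a median of 0.01. The cationic amino acid transporter Slc7a3 was at 74.4 ± 16.4 CPM in control and 9.18 ± 3.77 CPM in cKO cultures (SD, n = 4 each, -3.00, adjusted p = 0.000145), and Cth, the enzyme that makes cysteine from cystathionine, at 41.8 ± 12.8 and 9.11 ± 3.52 CPM (-2.18). Cebpb, a partner of ATF4, was the one called higher (0.83, adjusted p = 0.00334).

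In cartilage 2 of 16 tested genes of this list were called, both higher, with a median of 0.19 (0.01 over all genes). Of all tested genes 6.19% were called there. Asns, asparagine synthetase, was at 54.1 ± 8.52 CPM in control and 113 ± 10.8 CPM in cKO samples (SD, n = 4 each; 1.07, adjusted p = 8.71e-05). Eif4ebp1, a repressor of translation initiation, was at 81.6 ± 10.8 and 116 ± 13.9 CPM (0.51, adjusted p = 0.0268). Atf5, a transcription factor of the mitochondrial stress response, was also higher there, at 74.4 ± 9.20 against 204 ± 26.3 CPM (1.46, adjusted p = 7.37e-06), and was the 1 called of 7 tested genes on the mitochondrial stress list. In cultures the same 3 genes were lower in cKO: Asns by -0.33 at day 0 and -0.69 at day 3, Eif4ebp1 by -0.62 and -0.72, and Atf5 by -0.36 and -0.83, all called. Whether the genotype effect differed between cultures and cartilage was not tested, since the tables were made from different libraries.

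Many genes of protein folding, entry and exit were lower in cKO cultures as well. Of all genes, 31.6% were called lower at day 0 and 22.6% at day 3, with a median of 0.01 on both days. In cartilage 6.19% of all genes were called, in either direction. Of 16 other ER chaperones and folding enzymes 11 were called lower and 2 higher at day 0 (median -0.28) and 11 lower and 0 higher at day 3 (median -0.39), or 15 lower without replicate 4. Fkbp14, a folding enzyme for collagen, was at 104 ± 0.697 CPM in control and 46.0 ± 1.3 CPM in cKO cultures at day 0 (SD, n = 3 each, -1.19), and was the 1 called of 14 tested in cartilage, at 116 ± 6.97 against 77.3 ± 9.42 CPM (SD, n = 4 each, -0.59, adjusted p = 0.0114). All 14 genes of ER translocation and COPII export were lower at day 0 and 10 of 14 at day 3, with Sec23a, a coat subunit needed for collagen export, at -0.82 at day 0, and 0 of 14 were called in cartilage.

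Among 14 genes of ER-associated degradation, 10 were lower and 3 higher at day 0 (median -0.31), and 5 lower and 1 higher at day 3 (median -0.10). Of all genes, 64.5% were called at day 0. The 6 of this list called at day 3 are a smaller share than the 48.1% of all genes, and 6 of the 14 values were above 0. Selenos, which links the degradation complex to its motor, was at -0.75 and -0.76, and Edem2, a mannosidase that marks misfolded glycoproteins, at 0.22 and 0.51. Sel1l, the scaffold of the complex, was the 1 of 13 tested that was called in cartilage, and it was higher in cKO (0.44, adjusted p = 0.0411). Of all tested genes, 6.19% were called in cartilage, a share near that of this list. Of the OASIS family, transcription factors related to ATF6, Creb3l1 was higher (0.66 at day 0, 0.72 at day 3) and Creb3l2, known for its part in cartilage matrix secretion, lower (-1.06 and -0.96).

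Heat shock genes outside the ER went the opposite way in cultures. The list also holds the transcription factor gene Hsf1 and the mitochondrial chaperones Hspd1 and Hspe1. Of 12 genes 11 were called higher and 0 lower at day 0 (median 0.67, 0.01 over all genes), and 9 higher and 0 lower at day 3 (median 0.69). Of all genes, 33.0% were called higher at day 0 and 25.5% at day 3. Hspa1b was at 8.80 ± 0.98 CPM in control and 94.3 ± 9.02 CPM in cKO cultures at day 0 (SD, n = 3 each, 3.42, adjusted p = 1.07e-08), and Hspa1a, a near-identical copy whose reads the counting may split between the 2 genes, at 2.65 ± 0.256 and 26.5 ± 2.23 CPM. Hspb1, a small heat shock protein, was at 16.1 ± 1.14 and 139 ± 47.1 CPM at day 3 (SD, n = 4 each, 3.13). Of the 12, 1 was called in cartilage, Hspe1 (0.43, adjusted p = 0.0498), where 6.19% of all genes were called.

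Immediate early genes, which handling can also induce, are given beside Atf3. At day 0, 7 of 12 were called higher and 4 lower, among them Fosl1 (2.79) and Dusp1 (1.73) higher and Fos (-1.53) and Fosb (-0.98) lower. At day 3, 8 were higher and 0 lower, and from day 0 to day 3 in control cultures 9 of 12 fell, with Fos at 85.5 ± 5.87 CPM before (SD, n = 3) and 2.87 ± 1.65 CPM after (SD, n = 4). Of all genes, 64.5% were called at day 0, 48.1% at day 3 and 56.9% for this day change (28.8% lower). The part of the immediate early genes in the fall of Atf3 was not tested. A list of 10 genes linked to ER stress and cell death holds promoters of death, Bcl2, which opposes it, and Ero1a, an ER oxidase. Of these, 6 were higher and 1, Ero1a, lower at day 0 (median 0.38), where 64.5% of all genes were called. At day 3, 2 of the list were higher and 1, Bbc3, lower (-0.38, adjusted p = 0.00667). The median was 0.32, and 48.1% of all genes were called. In cartilage 1 of 9 tested, Tnfrsf10b, was called, and it was lower (-0.67, adjusted p = 0.0245). The cartilage median was 0.12, and 6.19% of all genes were called there. On this list Pmaip1, which encodes the death activator NOXA, was higher at day 0 (1.42) and at day 3 (1.84, adjusted p = 0.00111), while the member Ddit3 was lower on both days.

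**Figure D5:**
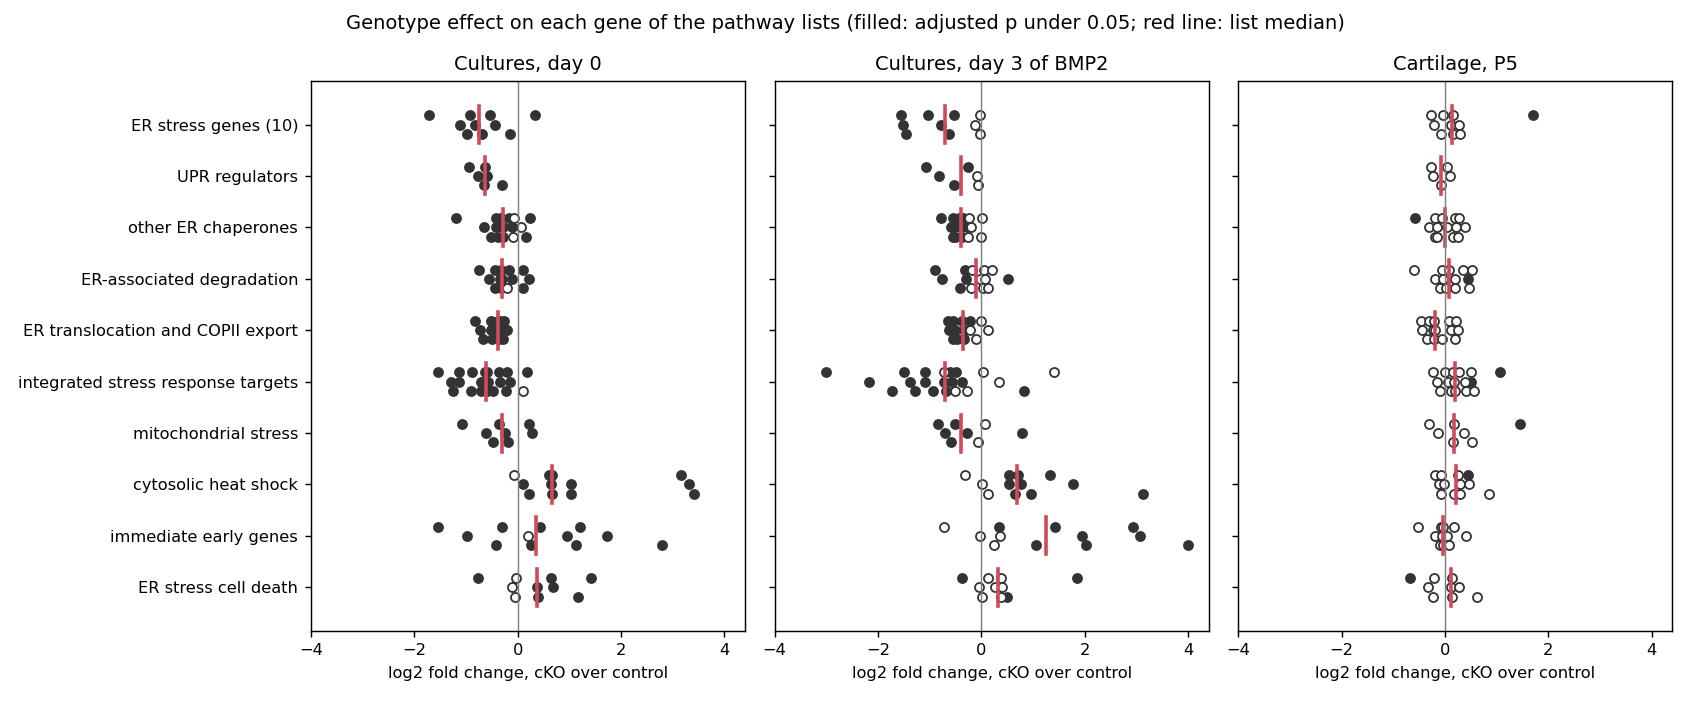
Log2 fold change of cKO over control (horizontal axes) for each tested gene of 10 lists (rows) at day 0, at day 3 and in cartilage, with filled points where the adjusted p was under 0.05 and a red line at each list's median. In cultures the medians of the ER stress genes lie at -0.75 and -0.70. Those of the row labelled cytosolic heat shock, which includes mitochondrial Hspd1 and Hspe1, lie at 0.67 and 0.69. The cartilage medians lie between -0.20 and 0.21.

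Over the 14 cultures, the genes whose log2 CPM followed Hspa5 most closely among 9652 well-expressed genes were Atf4 (Pearson's r = 0.992), Hax1 (0.990), Thyn1 (0.985), Gpt2 (0.984) and Eprs (0.982). Those closest to Ddit3 were Mcrip1 (0.983), Ccdc127 (0.981), G6pc3 (0.980), Slc35f5 (0.979) and Slc35a2 (0.979). Among the members, Trib3 was closest to Hspa5 (0.931) and Sdf2l1 farthest (-0.27), and Pdia4 was closest to Ddit3 (0.951) and Atf3 farthest (-0.21). Hspa5 and Ddit3 themselves had r = 0.444. These values describe 14 samples that share differences of genotype, day and depth, and carry no test.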

How the data were processed

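RNA was measured in 22 mouse samples. For the 14 cultures the values deposited by the authors are estimated counts (stranded total-RNA kit, per the labels; 23.5% of values were not whole, so they were rounded), and for the 8 cartilage samples both whole-number counts per gene, the main values, and estimated counts, an alternative. Cartilage libraries were BRB-seq, a barcoded 3′ method with molecular identifiers, per the labels' protocols. Per the submitters' processing notes the build was GRCm38, and for cartilage the notes name UMI-tools 1.1.1, Trim Galore 0.6.7, HISAT2 2.2.1, featureCounts 2.0.1 and DESeq2 1.34.0, without saying which cartilage table each made. The cultures' aligner is not given in the sources used here.

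Genotype effects were tested within day 0, within day 3 and in cartilage (sex as covariate) with edgeR 4.0.16 in R 4.3.3: quasi-likelihood test, TMM scaling, filterByExpr (10 counts, 15 in total) and Benjamini-Hochberg adjustment. A fit of the 14 cultures in 4 groups gave the changes between days and the interaction, and a fit of cartilage by sex the sex interaction. SE is the absolute log2 fold change over the square root of F. Intervals are 95%. The scripts were tested on simulated data with known changes. Of 100 genes changed by 1 on the log2 scale, 68% were called at day 0, 56% at day 3, 75% in cartilage and 52% for the interaction. Of 100 changed by 2, the shares were 97%, 90%, 100% and 75%. False calls numbered 22, 12, 12 and 4 in the same order. At day 0, at day 3 and in cartilage they were a share above 0.05 of all simulated calls. Each simulation changed these genes alone, whereas the data called 10023 genes at day 0. The simulated shares therefore describe only data where few genes change. Alternatives were DESeq2 1.42.0, RLE scaling, no filter, each sample left out, the replicate number as a block, 1 spread for all cultures, no sex term and the estimated cartilage counts. List counts without cKO day 3 replicate 4 were an alternative chosen after seeing the data. Gene positions came from GENCODE on GRCm38, promoters from RefSeq on GRCm38.p6. Replicate pairs differed beyond sampling noise (chi-square per degree of freedom 3.529 to 138.4 over 30 pairs), so each library counted as 1 sample.

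The members and lists were chosen with earlier results of these data known. Besides the members, the text names the sensors with Xbp1 and Atf4, Dnmt1, up to 2 called genes in each direction per list and comparison with the largest change (mean log2 CPM at least 1, groups not overlapping), and the 5 genes most like Hspa5 and Ddit3 (mean log2 CPM at least 3). Other names were chosen after their values were seen: Atf6b, and the values of a named gene in a further comparison.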

Additional observations from a re-analysis of the deposited data

Results flagged for a closer look

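In 40 groups of 4 samples tested over the 10 members, 2 held a sample whose gap to the nearest of the others was above Dixon's 95% critical value as a share of the group's range. Chance flags about 1 in 20 groups. Both were replicate 4 of the cKO cultures at day 3, the library that stood apart: Pdia4 at 291.0 CPM (ratio 0.854) was low, and Dnajb9 at 69.53 CPM (ratio 0.939) was high.

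A test of the difference itself called a change of the genotype effect between day 0 and day 3 for 3 of 10 members. The same test called 16.8% of 14909 genes (9.94% positive, 6.89% negative). The difference was -0.39 for Hsp90b1 (SE 0.0958, adjusted p = 0.0147), 0.40 for Dnajb9 (SE 0.117, adjusted p = 0.0342) and -0.74 for Chac1 (SE 0.172, adjusted p = 0.0114). Of 14 fits that left out a sample, 9 lost the Dnajb9 call and 1 the Hsp90b1 call. In the same test 4 of 7 hypertrophic chondrocyte markers were called higher (median 3.23), 4 of 9 tested muscle markers were called higher and 1 of 10 chondrocyte markers lower. Of 8 fibroblast and tendon markers 4 were called higher and 1 lower (median 1.24). Called higher were also 2 of 6 tested osteoclast and macrophage markers and 1 of 2 tested adipocyte markers. Of 3 tested endothelial and pericyte markers 1 was called lower. The part of the markers was not tested.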

How the results depend on the processing

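Of 1050 values of single members under alternatives, 993 kept their direction and side of the threshold, 24 lost and 9 gained a call, and 24 changed sign, none of which was called in the main test. Sign changes outside the fits without 1 sample were the sex interaction of Ddit3 without the filter (-0.0226) and with estimated counts (-0.10). Without 1 sample, sign changed for values within -0.14 to 0.0988 (Sdf2l1) and -0.22 to 0.168 (Atf3) at day 3, -0.19 to 0.0503 (Dnajb9), -0.0277 to 0.272 (Ddit3) and -0.25 to 0.0563 (Chac1) in cartilage, -0.0270 to 0.173 for the day change of Trib3 in control, and -0.49 to 0.0065 (Pdia4), -0.18 to 0.319 (Sdf2l1) and -0.53 to 0.408 (Ddit3) for the sex interaction. The count of genes called at day 0 was 6260 with 1 spread for all 14 cultures, against 10023. In cartilage it was 1044 without the filter, against 544, and 362 to 630 without 1 sample, lowest without cKO replicate 4. The interaction called 5 members with DESeq2 and 1 to 4 without 1 sample, against 3 (2 without the filter, where Dnajb9 was lost), and 1591 to 4051 genes without 1 sample, against 2509. The member count moved without control day 0 replicate 2, and the gene count fell by over 1.5 times without control day 0 replicate 2 or 3 or cKO day 0 replicate 3 and rose without cKO day 3 replicate 4. The sex interaction called 33 genes without the filter, 4 with the replicate block, 2 with estimated counts and 1 to 6 without 1 sample (6 without cKO replicate 1, 2 without control replicate 1), against 1. The cause of these moves was not tested. Whether replicate numbers pair the samples cannot be settled with 3 or 4 samples per group. Deviations of same-numbered samples correlated by -0.083 to 0.313 at day 0, -0.177 to -0.09 at day 3 and -0.045 to 0.132 in cartilage. Those of samples with different numbers correlated by -0.269 to 0.286, -0.169 to 0.202 and -0.174 to 0.116. With the replicate block the members called were 10 at day 0, 7 at day 3, 1 in cartilage, 7 and 7 for the day changes and 3 for the interaction, as without it. Depth limits cartilage most, where Trib3 had 5 to 12 counts per control library.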

Other observations

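Slc7a3, the cationic amino acid transporter that was lower in cKO cultures at day 3 (-3.00), was left out of the cartilage test by the filter on low counts. Its level there was 2.02 ± 1.40 CPM in control (SD, n = 4, range 0.853 to 3.75) and 13.4 ± 4.14 CPM in cKO samples (SD, n = 4, range 8.03 to 17.2), groups that did not overlap, where library pool and genotype cannot be told apart. It was singled out after its values were seen.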
